A study of Mus musculus with 16 samples.

Results

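Primary cortical neurons at basal activity were compared after knockdown of Nup153, with both hairpins against its transcript pooled as 1 group. The comparison rests on 8 of the 16 labelled samples of the series, of which 14 have a column under their own name. The knockdown group holds 4 libraries, replicates 1 and 2 of shNup153_1 and replicates 1 and 2 of shNup153_2, and the control group holds replicates 1 to 4 of shControl. A gene was described when all 4 knockdown libraries lay on the same side of all 4 controls, among the gene lines that stand above a misplaced stretch of the deposited table. All cultures came from cortices of C57BL/6 embryos at embryonic day 17.5 to 19.5, with 1 litter pooled per replicate. The hairpins were delivered by adeno-associated virus (AAV) on day 8 in vitro and RNA was collected on day 13. No basal culture received a silencing drug, and the control cultures received AAV with the hairpin shControl. According to the protocol, knockdown samples went on to sequencing only when Nup153 was sufficiently reduced, so the level of Nup153 is part of how the samples were selected. Titles and description disagree for the shNup153 samples: the description gives the virus of the controls, the title a hairpin against Nup153, and the titles were followed. A further set of cultures, silenced with tetrodotoxin (1 to 2 µM, 24 hours), which blocks sodium channels, and D-AP5 (100 µM, 6 hours), which blocks NMDA receptors, held 3 shControl and 3 shNup153_2 libraries and was used only for comparison.

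Nup153 is a nucleoporin of the nuclear basket, the filamentous face of the nuclear pore complex that looks onto the chromatin. It takes part in import and export through the pore and is also found in contact with chromatin and chromatin regulators. In cortical neurons, calcium entering through NMDA receptors and voltage-gated channels switches on immediate early genes, many of them transcription factors, within minutes, and these are followed by late genes for secreted factors, channels and synaptic proteins. The series was designed around how Nup153 bears on gene programs of mature neurons.

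The promoters of 3 genes are given first, because they carry the same element and the genes behind them belong to the activity-regulated set described below and did not move in the same direction. The capitals mark the full cyclic AMP response element (CRE, TGACGTCA, a palindrome and so read alike on both strands), the site bound by CREB, and each stretch is the 120 bases that precede the RefSeq start on GRCm38.p6 in the sense of the gene. Pcsk1 encodes a prohormone convertase (chr13:75089737-75089856, plus strand), Scg2 the granule protein secretogranin II (chr1:79440027-79440146, minus strand), and Plk2 a polo-like kinase of active synapses (chr13:110394924-110395043, plus strand).
Pcsk1: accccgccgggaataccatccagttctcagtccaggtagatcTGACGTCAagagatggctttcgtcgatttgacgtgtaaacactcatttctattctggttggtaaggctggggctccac
Scg2: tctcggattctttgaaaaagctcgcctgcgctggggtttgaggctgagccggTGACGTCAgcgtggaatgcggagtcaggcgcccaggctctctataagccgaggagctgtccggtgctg
Plk2: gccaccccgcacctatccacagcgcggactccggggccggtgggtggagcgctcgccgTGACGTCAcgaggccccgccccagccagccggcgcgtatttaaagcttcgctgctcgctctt
The element begins at base -78 of Pcsk1, -68 of Scg2 and -62 of Plk2. Of 27025 RefSeq promoter windows of 300 bases, 507 (1.88%) hold these letters. A promoter window was matched for 74.2% of the genes that rose and 77.6% of those that fell, which is under 80%, so no comparison of promoter content between gene sets was made.

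Total counts per basal library ranged from 26863535 to 56299817, with 28940314 to 56299817 in shControl and 26863535 to 44044312 after knockdown. Values in the shNup153_1 columns stood 1 to 4 lines early from line 16420 on, which is why the lower 9972 of its 26371 lines were not analysed here. Levels are CPM, counts divided by the whole library total and put on a common scale of library size, scaled by trimmed means (TMM). The first principal component of the 8 libraries (43.3% of the variance) did not separate the groups: shControl replicates 2 and 4 and shNup153_1 replicate 1 lay highest on it. The second (31.7%) did, with controls at 12.5 to 45.8 and knockdown libraries at -74.0 to 3.64. Neuronal markers were present in every library, with Rbfox3 at 131 to 244 CPM and Snap25 at 655 to 1426 CPM.

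The target was reduced in every knockdown library. Nup153 (chr13:46679905-46727940, minus strand, mm10) stood at 95.7, 55.1, 79.6 and 58.3 CPM in the controls, at 17.6 and 28.5 CPM with shNup153_1 and at 13.5 and 11.6 CPM with shNup153_2. The highest knockdown library lay below the lowest control, and Nup153 fell with a log2 fold change of -2.02 (SE 0.31, edgeR quasi-likelihood test, adjusted p = 0.00607). The difference between the hairpins in Nup153 itself was -0.88 on the log2 scale (shNup153_2 minus shNup153_1, SE 0.33, adjusted p = 0.143), which did not pass the threshold. Hdac1, a histone deacetylase that the series names together with Nup153, stood at 11.3, 15.1, 13.4 and 14.3 CPM in controls and at 11.2, 11.2, 9.83 and 9.9 CPM after knockdown. Its groups did not overlap, by a margin of 1.01 times, and its log2 fold change of -0.36 (SE 0.17, adjusted p = 0.228) did not pass.

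Of 13996 genes tested, 768 rose (5.49% of all genes tested) and 536 fell (3.83%) at a false discovery rate (FDR) of 0.05. All 4 knockdown libraries lay above all 4 controls in 1394 genes (9.96%) and below them in 1214 genes (8.67%). Of the genes that rose, 745 were also fully separated, and so were 531 of those that fell. The other 23 and 5 passed the test with overlapping groups. Separation without passing the test was found in 649 genes that were higher and 683 that were lower. Among genes that passed, the median log2 fold change was 1.18 for rises and -1.15 for falls. Changes of more than 4-fold were seen in 90 rises and 90 falls, and changes of more than 8-fold in 12 and 18. At the edge of separation, Srcin1 was just inside, with 131 to 198 CPM in controls and 198 to 431 CPM after knockdown, and Srl was just outside, with 19.7 to 38.9 CPM in controls and 13.8 to 19.7 CPM after knockdown. The counts depended on single libraries. Without shControl replicate 1, 2, 3 or 4, the rises numbered 392, 440, 485 and 277 and the falls 296, 311, 358 and 166. Without shNup153_1 replicate 1 or 2 there were 995 and 404 rises and 624 and 233 falls, and without shNup153_2 replicate 1 or 2 there were 466 and 392 rises and 317 and 229 falls. In all 8 of these fits, 260 of the 768 rises and 148 of the 536 falls passed.

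**Figure D1:**
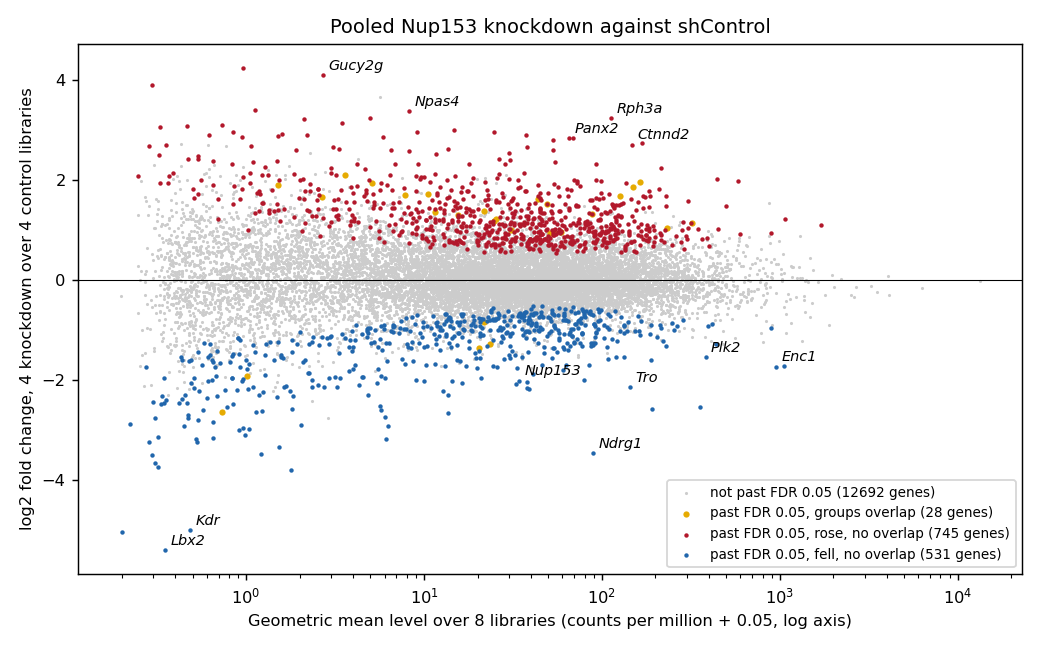
Each point is a gene, with its geometric mean level over the 8 basal libraries (CPM + 0.05, log axis) against its log2 fold change after pooled Nup153 knockdown. Red (745 genes) and blue (531) points passed FDR 0.05 with no overlap between groups, yellow points (28) passed with overlap, and grey points (12692) did not pass.

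The gaps above the controls (the lowest knockdown library over the highest control, 0.05 CPM added to each) were widest for Ovol2 at 7.16 times and Gucy2g at 6.95 times, both low in controls, and then for Panx2 and Rph3a. Panx2, a large-pore channel of the pannexin family (chr15:89059734-89073567, plus strand), stood at 23.2, 25.4, 22.9 and 27.1 CPM in controls, at 193 and 162 CPM with shNup153_1 and at 183 and 161 CPM with shNup153_2. It rose with a lowest knockdown library 5.92 times its highest control (log2 fold change 2.83, SE 0.16, adjusted p = 0.000155), and the hairpins differed by -0.05 (SE 0.19, adjusted p = 0.888). Rph3a, the Rab3 effector rabphilin-3A of synaptic vesicles, stood at 31.5, 41.9, 28.1 and 47.2 CPM in controls, at 375 and 264 CPM with shNup153_1 and at 385 and 373 CPM with shNup153_2. All 4 knockdown libraries lay at least 5.59 times above the highest control (log2 fold change 3.23, SE 0.24, adjusted p = 0.000797).

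Hcn2, a channel opened by hyperpolarization, stood at 15.8, 16.6, 10.8 and 17.8 CPM in controls and rose to 121 and 76.6 CPM with shNup153_1 and to 100 and 87.8 CPM with shNup153_2 (log2 fold change 2.66, SE 0.23, adjusted p = 0.000932). Ctnnd2, which encodes the synaptic adhesion protein delta-catenin, rose from 72.1, 44.8, 58.3 and 58.1 CPM to 295, 370, 443 and 412 CPM, in the order shNup153_1 and then shNup153_2. Slc7a8, a transporter of neutral amino acids, rose from 13.6, 10.9, 19.4 and 12 CPM to 77.8, 105, 117 and 115 CPM. In these genes the gap between the lowest knockdown library and the highest control was 4.31, 4.09 and 3.99 times. Stac2, an adaptor of voltage-gated calcium channels, rose from 5.37 to 15.3 CPM over the controls to a range of 58.5 to 92.9 CPM (log2 fold change 2.96, SE 0.34, adjusted p = 0.00221). Hivep1, a large zinc finger transcription factor, stood at 14.2 to 26.2 CPM in controls, at 92.1 and 122 CPM with shNup153_1 and at 187 and 182 CPM with shNup153_2.

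Signalling genes were also among the rises with wide gaps. Traf3, an adaptor of tumour necrosis factor receptors, stood at 39.3 to 47.5 CPM in controls and at 156 to 263 CPM after knockdown (log2 fold change 2.31, SE 0.22, adjusted p = 0.0015). Fbxl16, an F-box protein, stood at 55.1 to 75.9 CPM in controls, at 260 and 339 CPM with shNup153_1 and at 577 and 633 CPM with shNup153_2. Tmem163, a zinc transporter of synaptic vesicles, stood at 1.6 to 2.71 CPM in controls and rose to 9.11 to 11.3 CPM. Low in controls were Gucy2g, a receptor guanylyl cyclase, which rose from 0.361 to 0.969 CPM to a range of 7.04 to 17.4 CPM, and Ovol2, a zinc finger transcription factor best known from epithelia, which rose from 0.149 to 0.255 CPM to a range of 2.13 to 6.69 CPM. Tcim rose from 0.319 to 0.674 CPM to a range of 3.41 to 5.55 CPM. The 15 rises with the widest gaps passed the test in each of the 8 fits that left out 1 library. They were chosen for these gaps in the same 8 libraries, so this is not an independent check. Exons of Ovol2 and Tcim overlap antisense genes over 17.0% and 18.7% of their length. No source used here gives the strand setting of the counting, so their reads and those of the antisense partners cannot be told apart.

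**Figure D2:**
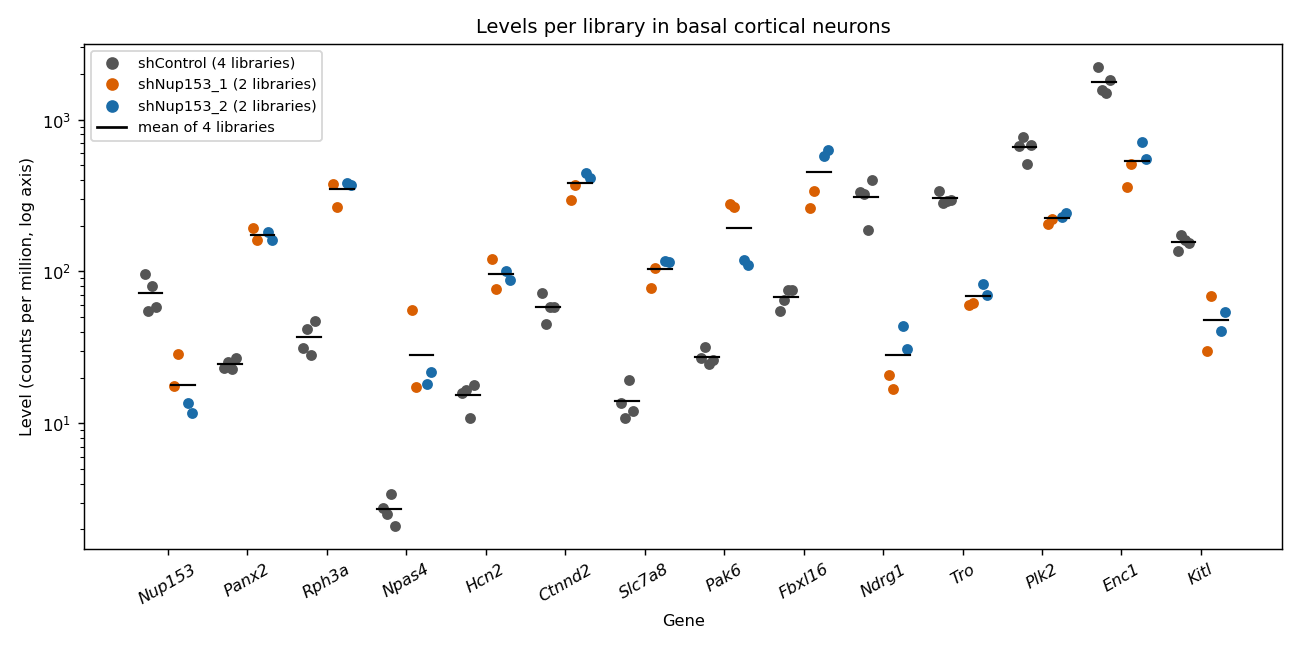
Points are levels (CPM, log axis) of Nup153 and 13 named genes in each basal library, with shControl in grey, shNup153_1 in orange and shNup153_2 in blue, and lines at the means of the 4 control and the 4 knockdown libraries. In all 14 genes every knockdown library lies on the same side of every control, and for Pak6 both shNup153_1 points lie above both shNup153_2 points.

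Falls with wide gaps included a gene of the hypoxia response, an adhesion gene and several signalling genes. Ndrg1, a gene of differentiation and of the response to hypoxia (chr15:66929318-66969640, minus strand), stood at 334, 324, 188 and 398 CPM in controls, at 20.7 and 16.8 CPM with shNup153_1 and at 43.9 and 31 CPM with shNup153_2. It fell so far that its lowest control was 4.28 times its highest knockdown library (log2 fold change -3.47, SE 0.36, adjusted p = 0.00177). It was the only member past the threshold among 35 tested genes of glycolysis and the hypoxia response (2.86% fell, against 3.83% of all genes tested). Their median log2 fold change was -0.18. Tro, which encodes the adhesion protein trophinin, fell from 339, 284, 293 and 297 CPM to 60.1, 61.6, 82.9 and 69.5 CPM (log2 fold change -2.15, SE 0.18, adjusted p = 0.000932).

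Enc1, an actin-binding kelch protein of neurons, had the highest level among the named falls. It stood at 2221, 1572, 1498 and 1814 CPM in controls and at 357, 509, 712 and 552 CPM after knockdown (log2 fold change -1.74, SE 0.25, adjusted p = 0.00491). Kitl, the ligand of the receptor tyrosine kinase Kit, fell from 137 to 174 CPM to a range of 29.7 to 68.8 CPM. Cyld, a deubiquitinase, fell from 202 to 276 CPM to a range of 48.1 to 91.4 CPM. The zinc importer gene Slc39a10 fell from 189 to 243 CPM to a range of 47.4 to 97.1 CPM. The zinc finger homeobox gene Zhx1 fell from 151 to 208 CPM to a range of 48.6 to 73.6 CPM. Their log2 fold changes were -1.70 for Kitl, -1.54 for Cyld, -1.54 for Slc39a10 and -1.58 for Zhx1. Each of the named falls with wide gaps or high levels passed in all 8 fits that left out 1 library. These falls too were chosen for their gaps in the same libraries, so the fits are not an independent check.

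The other falls with wide gaps were genes of low level. Iyd, an iodotyrosine deiodinase, stood at 13.1 to 24.8 CPM in controls and fell to a range of 1.53 to 2.85 CPM. Pabpc1l, a poly(A)-binding protein known from oocytes, fell from 2.42 to 5.13 CPM to a range of 0.233 to 0.47 CPM. Nup210l, a relative of the pore protein Nup210 known from testis, fell from 3.65 to 5.59 CPM to a range of 0.427 to 0.927 CPM, whereas Nup210 itself stood at 32.3 to 54.7 CPM in controls and 31.2 to 51.7 CPM after knockdown. Mocos, a molybdenum cofactor sulfurase, fell from 4.1 to 8.06 CPM to a range of 0.349 to 1.12 CPM. The neuropeptide gene Gal (galanin) fell from 4.01, 1.31, 2.42 and 2.23 CPM to 0.349, 0.188, 0.371 and 0.319 CPM. Lbx2, a homeobox gene, was listed at 0.452, 3.06, 1.07 and 2.36 CPM in controls and at 0.0776, 0.0313, 0 and 0.0531 CPM after knockdown, with no count in shNup153_2 replicate 1, so no fold is given. Npc1l1 (sterol uptake), Slc17a9 (vesicular nucleotide transport), Fgf17 (a fibroblast growth factor), Nmrk2 (nicotinamide riboside kinase), Trim72 (membrane repair) and Noxred1 also fell. Exons of Nmrk2 and Trim72 overlap antisense genes over 14.6% and 27.6% of their length.

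A share of the immediate early genes rose after knockdown. Of 34 tested, 12 rose (35.3%, against 5.49% of all genes tested) and 0 fell. The median log2 fold change was 1.14, against 0.00 for all genes tested. Of the 34, 15 were fully separated above and 0 below the controls, against 9.96% and 8.67% of all genes tested. Summed over the list, the controls stood at 567 to 746 CPM and the knockdown libraries at 1108 to 1557 CPM, without overlap. Npas4, a transcription factor induced by calcium entry, stood at 2.78, 2.54, 3.43 and 2.1 CPM in controls, at 55.3 and 17.2 CPM with shNup153_1 and at 18.1 and 21.6 CPM with shNup153_2 (log2 fold change 3.37, SE 0.42, adjusted p = 0.00273). Nr4a1, an orphan nuclear receptor, rose from 5.82, 3.36, 9.78 and 3.67 CPM to 48.8, 21.8, 42.7 and 67.4 CPM (log2 fold change 3.00, SE 0.43, adjusted p = 0.0047). Arc, a regulator of AMPA receptor endocytosis, rose from 6.65, 2.98, 6.19 and 4.75 CPM to 29.7, 16.6, 22.6 and 48.9 CPM (log2 fold change 2.51, SE 0.38, adjusted p = 0.00546). In each of these genes the lowest knockdown library stood above the highest control.

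Members of the list differed in size of change. Egr4, a zinc finger factor with controls of 4.66 to 5 CPM, rose to a range of 12.1 to 26.9 CPM (log2 fold change 2.02, SE 0.28, adjusted p = 0.00428). Nr4a3, an orphan receptor like Nr4a1, rose from 7.08 to 18.6 CPM to 42.7 and 31.1 CPM with shNup153_1 and to 100 and 91 CPM with shNup153_2. Egr1 rose from 34.1, 14.3, 46.5 and 22.9 CPM to 121, 71.7, 89.2 and 166 CPM, and Egr3 had a smaller change (log2 fold change 0.99, SE 0.23, adjusted p = 0.0273). The MAP kinase phosphatase genes Dusp1 and Dusp5, Ier2, Trib1 and the clock gene Per1 also rose. Fos, a subunit of AP-1, stood at 17.8, 3.62, 23.5 and 6.63 CPM in controls and at 94.2, 36.4, 32 and 49.1 CPM after knockdown, separated but with an adjusted p of 0.0548, and Fosb was likewise separated with an adjusted p of 0.0535. Log2 fold changes close to 0 were measured for Jun (0.00), Klf6 (-0.07) and Egr2 (-0.09). The 12 rises became 5 without shControl replicate 4. Without shControl replicates 2 and 4 and shNup153_1 replicate 1 together, the libraries highest on the first component, they became 4, an omission chosen after seeing the data.

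Late activity genes, which encode secreted, synaptic and signalling proteins, rose in part. Of 29 tested, 11 rose (37.9%) and 2 fell (6.9%), against 5.49% and 3.83% of all genes tested. The median log2 fold change was 0.83, against 0.00 for all genes tested. Bdnf, the brain-derived neurotrophic factor, stood at 3.81, 4.7, 9.78 and 5.7 CPM in controls, at 29.6 and 18.8 CPM with shNup153_1 and at 30.6 and 68.2 CPM with shNup153_2 (log2 fold change 2.62, SE 0.44, adjusted p = 0.00791). Pcsk1, the convertase whose promoter is printed above, rose from 6.18, 10.9, 5.83 and 9.88 CPM to 37.1, 31.3, 39.9 and 54.2 CPM (log2 fold change 2.31, SE 0.27, adjusted p = 0.00244). Scg2, a granule protein, rose from 55.4, 55.4, 93.5 and 89.7 CPM to 424, 214, 178 and 302 CPM (log2 fold change 1.93, SE 0.32, adjusted p = 0.00735). Nptx2, a pentraxin that gathers AMPA receptors, rose from 4.41 to 9.08 CPM to a range of 18.4 to 43.6 CPM. Vgf, a neuropeptide precursor, rose from 13.4 to 32.7 CPM to a range of 82.8 to 275 CPM, with the highest value in shNup153_2 replicate 2. Rgs4, which shortens G protein signals, rose from 70.7 to 131 CPM to a range of 259 to 460 CPM. Igf1, Rgs2, Adcyap1 and Acan also rose.

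Plk2 went the other way. It stood at 666, 773, 512 and 683 CPM in controls, at 206 and 223 CPM with shNup153_1 and at 229 and 243 CPM with shNup153_2, and it fell with a log2 fold change of -1.55 (SE 0.19, adjusted p = 0.00244). Its promoter carries the same CRE letters as those of Pcsk1 and Scg2. Nrn1, which encodes the growth factor neuritin, also fell, from 107 to 124 CPM to a range of 32.3 to 79.2 CPM (adjusted p = 0.0305). Homer1, a postsynaptic scaffold, stood at 112 to 157 CPM in controls and 115 to 161 CPM after knockdown. The 11 rises became 7 without shControl replicates 2 and 4 and shNup153_1 replicate 1 together. The 2 falls became 1 without any single control, shNup153_1 replicate 2 or shNup153_2 replicate 1.

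**Figure D3:**
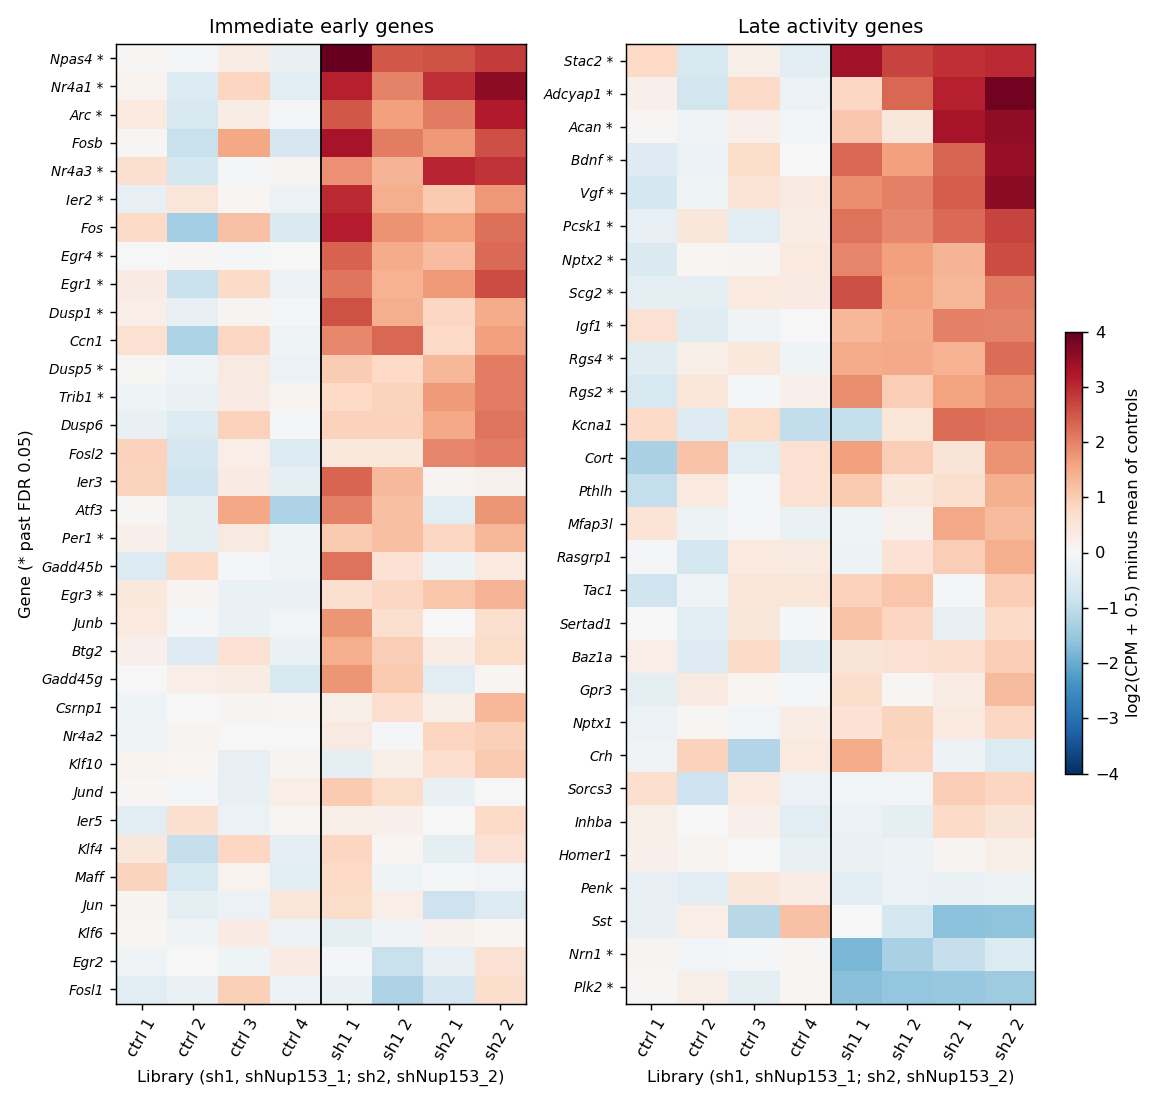
Colour gives log2(CPM + 0.5) of each library minus the mean of the 4 controls, with rows for 34 immediate early genes (left) and 29 late activity genes (right) in order of fold change and an asterisk on genes past FDR 0.05. The knockdown columns of both hairpins are red in the upper rows, and Nrn1 and Plk2 at the foot of the right panel are blue.

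Channels that set excitability showed rises without falls among the potassium and HCN genes. Of 51 tested, 9 rose (17.6%) and 0 fell, against 5.49% and 3.83% of all genes tested, with a median log2 fold change of 0.49. After Hcn2, the voltage-gated potassium channel gene Kcnc4 rose from 20, 27.7, 19.8 and 24 CPM to 60.1, 81.1, 102 and 99 CPM (log2 fold change 1.90, SE 0.22, adjusted p = 0.0021). Kcnn2, a calcium-activated channel, rose from 18.4 to 22.2 CPM to a range of 46.2 to 62.8 CPM (log2 fold change 1.38, SE 0.16, adjusted p = 0.00244). Kcnk3, a leak channel, rose from 8.37 to 13.4 CPM to a range of 24.6 to 29.6 CPM. All of these were separated. Kcng4, a modifier subunit, stood at 0.153 to 0.634 CPM in controls, at 6.56 and 7.2 CPM with shNup153_1 and at 1.55 and 1.19 CPM with shNup153_2, and it did not pass without shControl replicate 1 or 4, or shNup153_1 replicate 2 (adjusted p up to 0.0592). Hcn4, Kcnh3 and Kcnq3 also rose. The median of the list was -0.08 with shNup153_1 and 0.74 with shNup153_2, each against the same 4 controls. The 9 rises became 4 without shControl replicate 4 and 5 without shNup153_1 replicate 2.

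For the lists that follow, the shares in parentheses are of members that rose and fell, and those of all genes tested were 5.49% and 3.83%. Sodium and calcium channel genes gave 3 rises (Cacng7, Cacna1a and Scn1a) and 1 fall (Cacna2d3) of 28 (10.7% and 3.57%). The median log2 fold change of this list was -0.3 with shNup153_1 and 0.39 with shNup153_2. Cacng7, an auxiliary subunit, stood at 66.9 to 86.9 CPM in controls and at 145 to 197 CPM after knockdown (log2 fold change 1.26, SE 0.18, adjusted p = 0.00428). Cacna2d3, another auxiliary subunit, fell from 136 to 207 CPM to a range of 70.8 to 82.3 CPM (log2 fold change -1.18, SE 0.19, adjusted p = 0.00633). Without shControl replicate 4 the 3 rises became 1.

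Genes of the excitatory synapse gave 7 rises and 1 fall of 44 (15.9% and 2.27%), with a median log2 fold change of 0.19. The median was -0.25 with shNup153_1 and 0.61 with shNup153_2, so the hairpins differed in sign. The summed level was 7931 to 10081 CPM in controls, 5963 and 8472 CPM with shNup153_1 and 11733 and 10919 CPM with shNup153_2. Shank3, a scaffold of the postsynaptic density, rose from 58.4, 41.4, 54.8 and 47.5 CPM to 128, 223, 216 and 229 CPM (log2 fold change 1.98, SE 0.23, adjusted p = 0.00221), and the scaffold genes Shank1, Shank2 and Dlgap3 rose too. Grin1, the obligatory NMDA receptor subunit, rose from 185, 192, 185 and 200 CPM to 495, 386, 412 and 411 CPM (log2 fold change 1.16, SE 0.16, adjusted p = 0.00428), with an antisense gene over 13.5% of its exons. The glutamate receptor genes Grin2d and Grm2 also rose. Shank2 and Grm2 passed with overlapping groups. The kainate receptor gene Grik4 fell from 21 to 32.5 CPM to a range of 10.6 to 15.4 CPM and did not pass without shControl replicate 4, shNup153_1 replicate 2, or shNup153_2 replicate 2 (adjusted p up to 0.0613). The 7 rises became 4 without shControl replicate 1 and 3 without shControl replicate 4 or without either shNup153_2 library.

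On the presynaptic side 6 of 45 genes rose and 3 fell (13.3% and 6.67%). Syt1, the calcium sensor of fast release, rose from 733, 734, 592 and 773 CPM to 1447, 1390, 2000 and 1714 CPM (log2 fold change 1.21, SE 0.20, adjusted p = 0.00759). Syt2, its close relative, rose from 7.94 to 23.1 CPM to a range of 38 to 90.1 CPM. Syt9, a related sensor, fell from 43.8, 49.7, 35.2 and 50.5 CPM to 11.6, 14, 14.5 and 14 CPM (log2 fold change -1.73, SE 0.18, adjusted p = 0.00177). Within 1 family, then, the members moved in both directions. Cplx3 and Bsn rose, and Doc2a and Slc17a6 fell. The 6 rises became 3 without shControl replicate 4, and the 3 falls became 1 without shControl replicate 1, shControl replicate 4 or shNup153_2 replicate 2.

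Of 19 genes of the inhibitory synapse, 1 rose and 2 fell (5.26% and 10.5%). The median log2 fold change of this list was -0.25 with shNup153_1 and 0.43 with shNup153_2. Slc12a5, the chloride exporter KCC2, rose from 125 to 150 CPM to 244 and 305 CPM with shNup153_1 and to 549 and 482 CPM with shNup153_2. The GABA receptor subunit gene Gabra2 fell from 87 to 100 CPM to a range of 48.7 to 69.3 CPM (adjusted p = 0.0457), and Gabra3 fell from 153 to 242 CPM to a range of 112 to 152 CPM (adjusted p = 0.0474). Of the 8 fits that left out 1 library, Gabra2 passed in 0 (adjusted p up to 0.129) and Gabra3 in 1, the fit without shControl replicate 3.

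Interneuron markers gave 3 rises and 0 falls of 22 (13.6% rose), with a summed level of 1600 to 2540 CPM in controls and 2827 to 3886 CPM after knockdown. The vesicular transporter gene Slc32a1 and the GABA synthesis gene Gad2 rose at adjusted p = 0.0454 and 0.0468 and passed in 0 and 0 of the 8 fits that left out 1 library. An antisense gene covers 24.9% of the exons of Slc32a1. Dlx5 and Lhx6, transcription factors of interneurons, had log2 fold changes of -0.13 and 0.27, neither past the threshold. The 3 rises became 2 without shControl replicate 2 and 1 without any other single library. In bulk RNA, a change in the number of such cells and a change in RNA per cell cannot be told apart.

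Among excitatory neuron markers, 1 of 24 rose and 3 fell (4.17% and 12.5%), and their summed level was 5430 to 9642 CPM in controls and 5266 to 7274 CPM after knockdown. Bhlhe22, a transcription factor of cortical projection neurons, fell from 317, 397, 238 and 391 CPM to 111, 141, 106 and 83.5 CPM (log2 fold change -1.61, SE 0.23, adjusted p = 0.00479). Tbr1, a factor of deep layer neurons, fell from 111 to 162 CPM to a range of 42.2 to 82 CPM and did not pass without shControl replicate 1 or 4, shNup153_1 replicate 2, or shNup153_2 replicate 2 (adjusted p up to 0.0907). Slc17a6, a vesicular glutamate transporter, fell from 75.5 to 104 CPM to 41.7 and 52.9 CPM with shNup153_1 and to 22.5 and 20.9 CPM with shNup153_2. Cux2, a factor of upper layer neurons, rose from 19.9 to 42.1 CPM to a range of 54 to 121 CPM and did not pass without shControl replicate 4 (adjusted p up to 0.0588). Slc17a7, the other main vesicular glutamate transporter of the cortex, stood at 334 to 494 CPM in controls, at 229 and 350 CPM with shNup153_1 and at 721 and 832 CPM with shNup153_2, so the pooled groups overlapped. The 3 falls became 1 without shControl replicate 1, shControl replicate 4 or shNup153_2 replicate 2.

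Axon guidance genes gave 7 rises and 2 falls of 59. These are shares of 11.9% and 3.39%, against 5.49% and 3.83% of all genes tested, so the share of falls was near that of all genes. The median log2 fold change of this list was -0.14 with shNup153_1 and 0.41 with shNup153_2. Sema6b, a transmembrane semaphorin, rose from 34.2 to 49.9 CPM to a range of 106 to 142 CPM (log2 fold change 1.47, SE 0.19, adjusted p = 0.0032). The ephrin receptor gene Ephb1 rose from 15 to 17.5 CPM to a range of 29.8 to 34.5 CPM, and Ephb2 rose from 24.6 to 35 CPM to a range of 56.7 to 98.4 CPM. Sema4c and the ephrin receptor gene Epha3 fell. The 7 rises became 3 without shControl replicate 1 or 4 or either shNup153_2 library, 4 without shControl replicate 2 or shNup153_1 replicate 2, and 11 without shNup153_1 replicate 1. The 2 falls became 1 without shControl replicate 2 and 0 without shControl replicate 1, shControl replicate 4, shNup153_1 replicate 2 or shNup153_2 replicate 2.

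Genes of the extracellular matrix around neurons gave 3 rises and 1 fall of 26 (11.5% and 3.85%). The link protein genes Hapln1 and Hapln4 and the proteoglycan gene Acan rose. Hapln1 stood at 39.9, 32.1, 29.2 and 29.7 CPM in controls and at 81.5, 82.8, 68 and 61.2 CPM after knockdown (log2 fold change 1.16, SE 0.18, adjusted p = 0.00588). Tnc, which encodes tenascin C, fell from 49.5 to 74.2 CPM to a range of 23 to 37.7 CPM (log2 fold change -1.18, SE 0.21, adjusted p = 0.0102). The 3 rises became 1 without shControl replicate 1 or 4.

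Calcium-dependent signalling genes gave 4 rises and 1 fall of 35 (11.4% and 2.86%). Rcan2, a calcineurin regulator, rose from 19.3 to 30.1 CPM to a range of 71.2 to 179 CPM. Nfatc2, a transcription factor that calcineurin activates, rose from 3.22 to 5.21 CPM to a range of 10.4 to 16.9 CPM. Nrgn, the calmodulin-binding protein neurogranin, rose from 128, 359, 220 and 214 CPM to 886, 1044, 721 and 1093 CPM (log2 fold change 2.02, SE 0.31, adjusted p = 0.00586). Crem, a CRE-binding factor, rose and the kinase gene Camk1g fell, each passing in 1 of the 8 fits that left out 1 library. Of 22 clustered protocadherins tested, none passed in the edgeR test, 4 were higher at an unadjusted p under 0.05 and DESeq2 called 3 higher. Of all 13996 genes tested, 1995 were higher at that unadjusted p and DESeq2 called 1381 higher. Another 33 of the list stand in the misplaced stretch and were not analysed here.

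Genes of programmed cell death had the largest share of falls among the lists. Of 29 p53 targets and apoptosis genes, 7 fell (24.1%, against 3.83% of all genes tested) and 0 rose, with a median log2 fold change of -0.20. Several of those that fell act in the mitochondrial pathway. Apaf1, the scaffold of the apoptosome, fell from 121, 82.2, 105 and 126 CPM to 34.4, 55.8, 50.5 and 41.2 CPM (log2 fold change -1.26, SE 0.21, adjusted p = 0.00828). Hrk, which encodes a BH3-only protein, fell from 164, 71.6, 104 and 134 CPM to 29, 55.3, 30.3 and 31.3 CPM (log2 fold change -1.70, SE 0.31, adjusted p = 0.0107). Bcl2l11, which encodes another BH3-only protein, fell from 24.9 to 29.5 CPM to a range of 14.8 to 16.5 CPM. Zmat3, a p53 target that binds RNA, fell from 161, 71.8, 176 and 67.9 CPM to 26.6, 47.4, 31 and 31.8 CPM. Bid, which links death receptors to mitochondria, fell, as did Birc5, an inhibitor of apoptosis that also marks dividing cells. Cdkn1a, Mdm2 and Bax, further p53 targets, had log2 fold changes of 0.19, -0.09 and -0.36, none past the threshold. The 7 falls became 4 without shControl replicate 2, shControl replicate 4, shNup153_1 replicate 2 or shNup153_2 replicate 2.

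**Figure D4:**
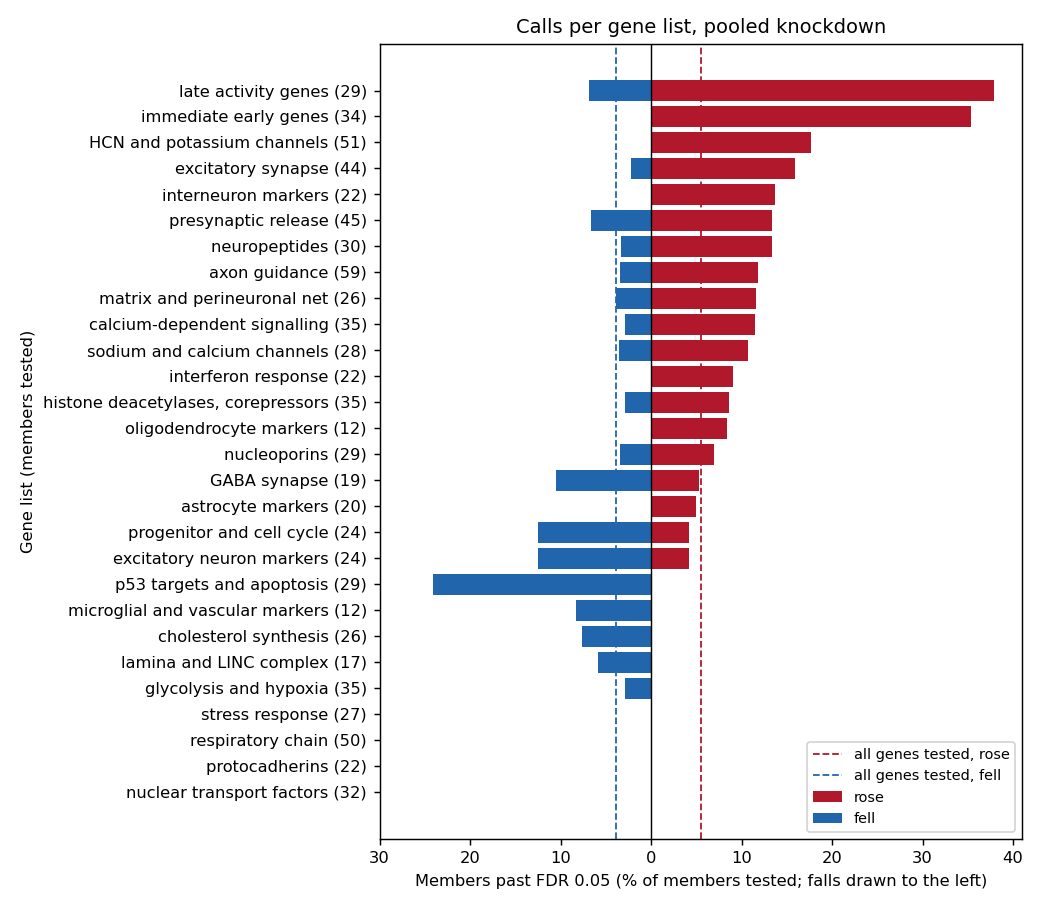
Bars give the share of tested members past FDR 0.05 in each of the 28 gene lists, rises in red to the right and falls in blue to the left, with dashed lines at the shares of all genes tested (5.49% and 3.83%). Late activity and immediate early genes have the longest bars to the right, and p53 targets and apoptosis genes the longest to the left.

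At the nuclear pore, few genes beyond the target passed. Of 29 nucleoporins, 2 rose and 1, Nup153, fell (6.9% and 3.45%). Ndc1, which anchors the pore in the membrane, rose from 18.6 to 28.7 CPM to a range of 36.6 to 47.7 CPM, and Pom121, another pore membrane protein, rose from 35.5 to 55.4 CPM to a range of 69.1 to 83.1 CPM, with an antisense gene over 11.9% of its exons. Ndc1 passed in 3 and Pom121 in 2 of the 8 fits that left out 1 library, and both rises were lost (0 genes) without shControl replicate 2 or 4, shNup153_1 replicate 2 or either shNup153_2 library. The basket partners of Nup153 showed no call. Tpr stood at 146 to 241 CPM in controls and 151 to 216 CPM after knockdown, and Nup50 at 57.6 to 72.7 CPM and 69.9 to 83.7 CPM. Below the controls without overlap were 5 of the 29, against 8.67% of all genes tested. Beside Nup153 these were Nup93, Rae1, Aaas and Ahctf1, with adjusted p of 0.0618, 0.0502, 0.228 and 0.0819. Of 32 nuclear transport factors, none passed in the edgeR test, 7 were lower at an unadjusted p under 0.05 and DESeq2 called 4 lower. Of all 13996 genes tested, 1604 were lower at that unadjusted p and DESeq2 called 1057 lower.

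In the nuclear lamina list, Sun2, a protein of the inner nuclear membrane, was the only one of 17 genes that passed (5.88% fell, against 3.83% of all genes tested). Sun2 fell from 41.4 to 53.7 CPM to a range of 17.9 to 26.5 CPM (log2 fold change -1.07, SE 0.18, adjusted p = 0.00834). Of 35 histone deacetylase and corepressor genes, 3 rose, Hdac5 and Hdac9 among them, and 1, Hdac2, fell (8.57% and 2.86%). Hdac2, the close relative of Hdac1, stood at 163, 237, 154 and 203 CPM in controls and at 73.4, 61.6, 102 and 87 CPM after knockdown (log2 fold change -1.23, SE 0.22, adjusted p = 0.0103). Hdac5 had a log2 fold change of 1.03 (adjusted p = 0.0159). Hdac9 did not pass without shControl replicate 1, 2, 3 or 4, or shNup153_2 replicate 1 or 2 (adjusted p up to 0.0932). Hdac3, a deacetylase of corepressor complexes, was separated but did not pass (log2 fold change -0.73, adjusted p = 0.0761).

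Metabolic and stress lists held few calls. Of all 13996 genes tested, 1995 were higher and 1604 lower at an unadjusted p under 0.05 in the edgeR test. DESeq2 called 1381 higher and 1057 lower. Of 50 respiratory chain genes none passed in the edgeR test or with DESeq2, and 1 was lower at an unadjusted p under 0.05. Their levels varied within the groups, with a summed level of 6850 to 14851 CPM in controls and 7197 to 15034 CPM after knockdown. It was highest in shControl replicates 2 and 4 and shNup153_1 replicate 1. The median log2 fold change of the list was 0.21 with shNup153_1 and -0.59 with shNup153_2. Of 27 stress response genes none passed, 1 was higher and 2 were lower at an unadjusted p under 0.05, DESeq2 called 1, and 3 rose without shControl replicate 3. Cholesterol synthesis genes had a median log2 fold change of -0.60. There were 2 falls of 26 (Msmo1 and Sc5d, 7.69%, against 3.83% of all genes tested), and 12 were lower at an unadjusted p under 0.05. Msmo1, a sterol oxidase, fell from 140, 316, 116 and 145 CPM to 92.3, 63.1, 57.7 and 70.4 CPM, and its shControl replicate 2 stood apart from the other controls. The 2 falls became 1 without shControl replicate 2 or 3 and 0 without shControl replicate 1 or 4, shNup153_1 replicate 2 or either shNup153_2 library. Of 22 interferon-response genes, 2 rose and 0 fell (9.09% and 0.0%, against 5.49% and 3.83% of all genes tested). Cxcl10, a chemokine, rose from 0.0307 to 0.0746 CPM to a range of 0.371 to 1.4 CPM, and Gbp3, a guanylate-binding protein, rose but did not pass without shControl replicate 1 or 4, shNup153_1 replicate 2, or shNup153_2 replicate 2 (adjusted p up to 0.0706).

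Markers of other cells were measured beside these groups. Of 20 astrocyte markers 1 rose (Vim) and 0 fell (5.0% and 0.0%, against 5.49% and 3.83% of all genes tested). The summed level of these markers was 1437 to 4899 CPM in controls and 3511 to 6447 CPM after knockdown. Of 12 tested oligodendrocyte markers 1, Olig1, rose and 0 fell (8.33% and 0.0%). Olig1 went from 74.7, 45.4, 144 and 84.9 CPM to 380, 511, 132 and 231 CPM, with overlap. The summed oligodendrocyte level was 127 to 302 CPM in controls, 798 and 810 CPM with shNup153_1 and 263 and 389 CPM with shNup153_2. Pdgfra, which marks oligodendrocyte precursors, stood at 2.22, 1.72, 1.04 and 7.52 CPM in controls, at 110 and 41.4 CPM with shNup153_1 and at 3.62 and 1.75 CPM with shNup153_2, so only shNup153_1 lay far from the controls. Gfap, of astrocytes, ranged from 1.72 to 151 CPM over the controls and from 1.01 to 256 CPM over the knockdown libraries. Vim passed in 2 and Olig1 in 3 of the 8 fits that left out 1 library. Without shNup153_2 replicate 1, 3 oligodendrocyte markers passed.

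Of the 19 microglial and vascular markers in the lines used, 8 were under 1 CPM in every library. Of the 12 tested, 0 rose and 1 fell (8.33%). This was Kdr, an endothelial receptor, which fell from 6.02, 1.16, 0.644 and 3.98 CPM to 0, 0.0626, 0.209 and 0.0531 CPM. The summed level of the 12 was 21 to 34.7 CPM in controls and 12 to 24.8 CPM after knockdown. Progenitor and cell cycle genes gave 1 rise and 3 falls (Hes5, Dll1 and Birc5) of 24 (4.17% and 12.5%), with summed levels of 259 to 304 CPM in controls and 276 to 385 CPM after knockdown. Antisense genes cover 31.8% of the exons of Hes5 and 20.5% of those of Dll1. The 3 falls became 1 without shControl replicate 2 or 4 or shNup153_2 replicate 2 and 0 without shNup153_1 replicate 2. The part of these markers in the changes of the neuronal lists was not tested.

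The hairpins gave different sizes for some of the separated genes. Between shNup153_1 and shNup153_2, 638 of 13996 genes differed at FDR 0.05 (4.56%), among them 22 of the 745 separated rises and 8 of the 531 separated falls. Of those 22 rises, 10 were larger with shNup153_1 and 12 with shNup153_2, and of the 8 falls, 7 and 1. Acan, which encodes aggrecan of the perineuronal net, stood at 2.35 to 3.13 CPM in controls, at 6.13 and 3.85 CPM with shNup153_1 and at 30.3 and 36.7 CPM with shNup153_2 (difference 2.75, SE 0.30, adjusted p = 0.00789). Pak6, a p21-activated kinase, stood at 24.5 to 31.6 CPM in controls, at 280 and 265 CPM with shNup153_1 and at 118 and 110 CPM with shNup153_2 (difference -1.26, SE 0.20, adjusted p = 0.0149). Slc25a39, a mitochondrial carrier, stood at 15.3 to 22 CPM in controls, at 155 and 90.3 CPM with shNup153_1 and at 29 and 32.4 CPM with shNup153_2 (difference -2.0, SE 0.29, adjusted p = 0.0132). Acan thus had its larger rise with shNup153_2, and Pak6 and Slc25a39 had theirs with shNup153_1. Ccne2, which encodes cyclin E2, fell from 18.8 to 27.3 CPM to 2.33 and 2.85 CPM with shNup153_1 and to 9.16 and 7.17 CPM with shNup153_2. Tmem167b fell from 61.2 to 66.5 CPM to 20.2 and 21.4 CPM with shNup153_1 and to 41.5 and 43.8 CPM with shNup153_2. Antisense genes cover 17.4% and 16.3% of the exons of Ccne2 and Tmem167b.

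For each of these genes but Pak6, the pooled call was lost in some fits that left out 1 library. Acan passed in 2 of the 8 fits that left out 1 library and was lost without shControl replicate 1, 2, 3 or 4, or shNup153_2 replicate 1 or 2 (adjusted p up to 0.0889). Slc25a39 passed in 3, Tmem167b in 1 and Ccne2 in 5 of them, while Pak6 passed in all 8. Each hairpin was also tested alone against the same 4 controls, which both comparisons share. Of the 768 rises, 389 passed with shNup153_1, 596 with shNup153_2, 302 with each and 85 with neither. Of the 536 falls, 266 passed with shNup153_1, 329 with shNup153_2, 186 with each and 127 with neither.

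Gene span was compared as a description, with no test. The median span was 33.2 kb for rises and 22.9 kb for falls, against 24.9 kb for all genes tested, and the median exonic length was 4.89, 4.27 and 4.47 kb. The share of genes matched in the annotation was 99.7%, 99.4% and 99.4%.

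The silenced cultures have libraries and controls of their own and were treated with shNup153_2. There, 306 of 18965 genes rose (1.61%) and 348 fell (1.83%). Libraries of the same replicate number varied together there, and with the replicate as a block 2215 rose (11.7%) and 1946 fell (10.3%). Of the basal rises also tested there, 698 of 749 (93.2%) had a positive log2 fold change, against 52.3% of the 13646 genes tested in both tables, and 486 of 525 basal falls (92.6%) had a negative one. The medians there were 0.50 for the rises and -0.50 for the falls. Past FDR 0.05 in the same direction were 130 of the rises and 102 of the falls, and 456 and 313 with the block. In the opposite direction none passed, and 3 and 1 passed with the block. Of the silenced rises tested at basal state 47.8% were among the basal rises, and of the silenced falls 34.3% were among the basal falls. Without silenced shControl replicate 1, 2 or 3 the silenced rises numbered 2, 273 and 27 and the falls 10, 386 and 57. Without silenced shNup153_2 replicate 1, 2 or 3 there were 1, 163 and 54 rises and 3, 209 and 45 falls.

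Nup153 itself stood at 62.4, 49.9 and 60.2 CPM in silenced controls and at 10.4, 13.2 and 9.17 CPM after knockdown (log2 fold change -2.40, SE 0.17, adjusted p = 0.00534). Panx2 stood there at 49, 48.7 and 48.4 CPM in controls and at 190, 149 and 134 CPM after knockdown (log2 fold change 1.70, SE 0.14, adjusted p = 0.00633). For Ctnnd2 the silenced levels were 112, 134 and 112 CPM and 344, 329 and 280 CPM (adjusted p = 0.00752). These genes were separated in both states. Ndrg1 stood at 437, 270 and 337 CPM and 100, 123 and 112 CPM (adjusted p = 0.0129), and Kitl at 86.3, 59.9 and 82.5 CPM and 17.9, 23.4 and 15.3 CPM (adjusted p = 0.00915). Enc1, which fell by 1.74 on the log2 scale at basal state, stood at 2092, 1358 and 1654 CPM in silenced controls and 1447, 1425 and 1060 CPM after knockdown (log2 fold change -0.38, adjusted p = 0.37, and 0.102 with the block). Of 34 genes that had the widest basal gaps or high levels and were tested in silenced cultures, Nup153 included, all 34 had the same sign, 15 passed, and 29 passed with the block. All of these but Nup153 were chosen by their basal change, and the basal values pool both hairpins where the silenced ones come from shNup153_2, so the sizes are shown side by side and not compared. Whether the changes differ between the states was not tested here.

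**Figure D5:**
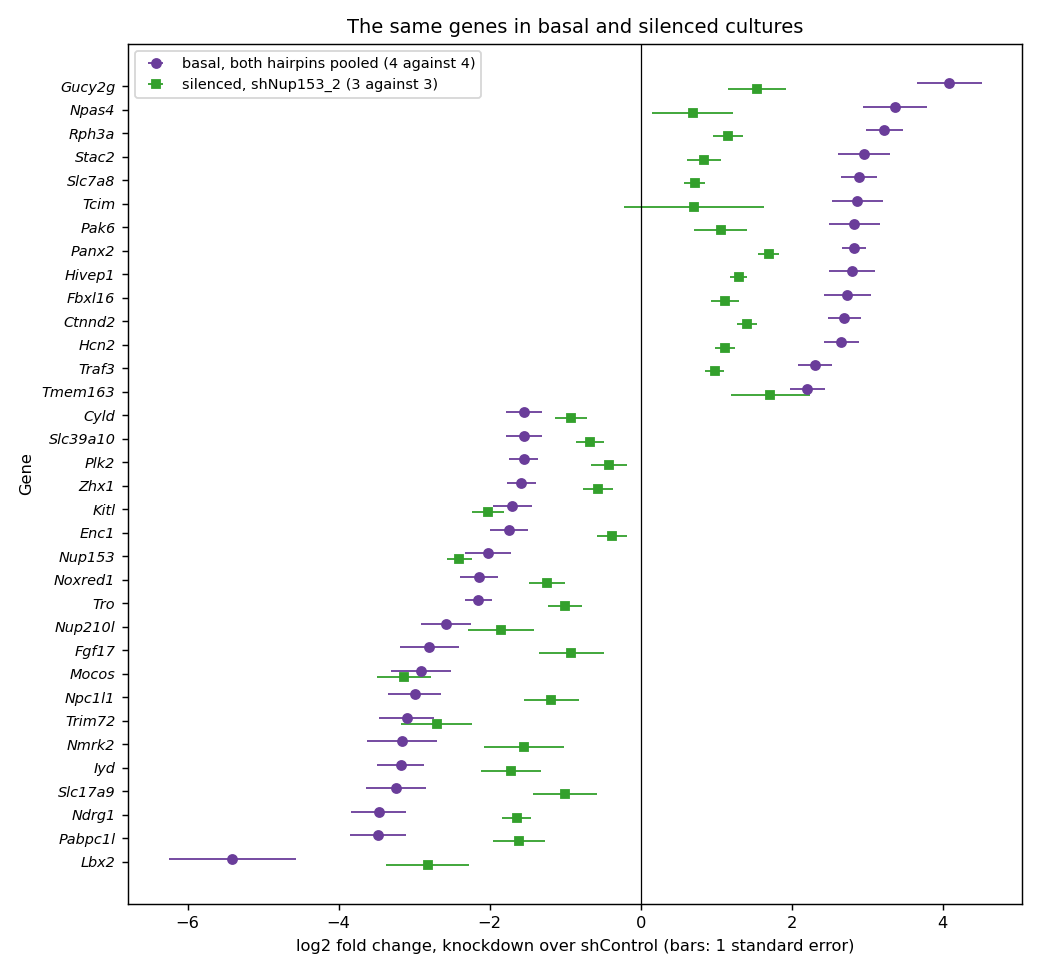
Points are log2 fold changes over shControl with bars of 1 SE, for 34 genes, those with the widest basal gaps or high levels that are reported here and Nup153, with circles for basal cultures (both hairpins pooled) and squares for silenced cultures (shNup153_2). All 34 genes lie on the same side of 0 in both. All but Nup153 were chosen by their basal change, so the distances of circles and squares from 0 are not compared.

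Over all 18965 genes tested in silenced cultures, 1.61% rose and 1.83% fell, and 11.7% and 10.3% with the replicate block. In the edgeR test 1925 of them were higher and 1820 lower at an unadjusted p under 0.05, and DESeq2 called 911 and 934. The immediate early genes were measured again in these cultures. Of 33 tested there, 0 rose and 0 fell in the edgeR test, with a median log2 fold change of 0.00, with 2 higher and 3 lower at an unadjusted p under 0.05. DESeq2 called 2 higher and 2 lower, and with the replicate block 4 rose and 5 fell. Npas4 stood at 1, 1.37 and 2.34 CPM in silenced controls and at 2.19, 1.08 and 4.31 CPM after knockdown (log2 fold change 0.69, SE 0.54, adjusted p = 0.541, and 0.19 with the block). Nr4a1 stood at 3.35, 3.13 and 2.07 CPM and at 3.19, 4.72 and 3.65 CPM (log2 fold change 0.43, SE 0.26, adjusted p = 0.424, and 0.186 with the block). For both genes the silenced groups overlapped, and so they did for Egr4 and Arc (log2 fold changes 0.03 and 0.00). Nr4a3 differed from these, with silenced groups that did not overlap. It stood at 6.94, 6.11 and 11.3 CPM in silenced controls and at 21.4, 11.8 and 28.6 CPM after knockdown (log2 fold change 1.35, SE 0.37, adjusted p = 0.102), and it passed with the replicate block (adjusted p = 0.00149). Of 28 late activity genes 0 rose and 0 fell there in the edgeR test, 3 were higher and 0 lower at an unadjusted p under 0.05, DESeq2 called 1 and 0, and with the block 6 rose and 2 fell. Potassium and HCN channel genes gave 3 rises and 1 fall of 52, and 21 and 3 with the block. Of 28 p53 and apoptosis genes 1 fell, and with the block 7 fell and 2 rose.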

How the data were processed

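RNA of 8 basal libraries (4 shControl, 2 shNup153_1, 2 shNup153_2) and 6 silenced libraries was compared. Per the labels, poly(A) RNA with an RNA integrity number above 8 went through a directional kit. The deposited values are counts per gene, which the authors made with featureCounts 2.0.1 and mm10 after FastQC, per the submitters' processing notes. The aligner, annotation and strand setting were not given in the sources used here. Of the basal columns, 2 share a name and were not used. Of 26371 basal lines, the lower 9972 were not used, because values there stand beside the wrong gene, with library totals from all lines. In R 4.3.3, edgeR 4.0.16 was run with filterByExpr (minimum count 10), TMM scaling, the quasi-likelihood test and Benjamini-Hochberg adjustment at 0.05, 4 knockdown against 4 control libraries. Replicates are litters, and the controls and both hairpins all use the numbers 1 and 2. Whether the same number means the same litter in basal cultures was not established here, so the number of independent litters is unknown. The test treats the 8 libraries as independent, and its p-values measure the spread between these libraries.

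Named genes are the 15 in each direction that passed with the widest gap between groups (higher group at 1 CPM or more, 0.05 CPM added), the 8 with the widest gap among those at 50 CPM or more, 5 with the strongest hairpin difference, and up to 5 per list from 28 lists (914 genes). Members, lists and rules were chosen with earlier results of these data known, and other list members named in the text (such as Egr1, Fos, Bdnf, Jun, Homer1, Cdkn1a and Dlx5) were chosen after their values were seen. Promoters are RefSeq windows of 250 bases before to 50 after the start, and gene spans and antisense overlaps come from the GENCODE vM21 annotation. Silenced libraries were fitted apart from the basal ones. Their same-numbered residuals correlated at 0.428, 0.672 and 0.755 and those of different number at -0.728 to 0.123, so the blocked values are printed too. With 3 libraries per group these residuals are not independent, and whether the same number means the same litter was not established there either. Alternatives were DESeq2 1.42.0, limma-voom (limma 3.58.1), other scaling, filters, library totals and lines, a 3-group model, a replicate block, single hairpins and leaving out libraries. Results of some genes the rules select are not reported here. The steps were tested on simulated data.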

Additional observations from a re-analysis of the deposited data

Results flagged for a closer look

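Within groups of 4 libraries, 12 of 234 groups (5.13%) held a library whose distance from its nearest neighbour exceeded Dixon's critical share of the range of the group, and chance gives about 1 in 20. Among rising genes, shNup153_1 replicate 1 stood apart at 55.3 CPM for Npas4, 5.55 CPM for Tcim, 145 CPM for Cacng7 and 128 CPM for Shank3. The same library stood apart at 48.1 CPM for Cyld, which fell. For shNup153_1 replicate 2 the values were 264 CPM for Rph3a and 55.3 CPM for Hrk. The shNup153_2 libraries stood apart at 460 CPM for Rgs4 (replicate 2) and 314 CPM for Vim (replicate 1). Among the controls, replicate 2 stood apart at 13.4 CPM for Kcnk3, 132 CPM for Sc5d and 316 CPM for Msmo1.

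Of 116 named genes that passed, 8 differed between the hairpins by the test of the difference itself (log2, shNup153_2 minus shNup153_1), against 4.56% of all 13996 genes. Of these 8, 5 (Acan, Pak6, Slc25a39, Tmem167b and Ccne2) were named for their hairpin difference, so the count is in part set by that choice and nothing is read from it. Higher with shNup153_2 were Acan (2.75), Ccne2 (1.65), Tmem167b (1.04) and Slc12a5 (0.91). Lower with shNup153_2 were Kcng4 (-2.32), Slc25a39 (-2.0), Pak6 (-1.26) and Slc17a6 (-1.12). Ccne2 and Tmem167b had fallen with both hairpins and Slc17a6 too, so a positive difference means a smaller fall for the first pair, and the negative difference of Slc17a6 means a larger fall with shNup153_2.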

How the results depend on the processing

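None of the 116 named genes that passed changed sign in any basal alternative. All but Srl, Olig1 and Vim were separated, so fits on fewer of the same libraries could hardly change their sign. Among named genes that did not pass, Slc17a7 (0.33 pooled) stood at -0.57 with shNup153_1 alone and Pdgfra (3.65 pooled) at -0.21 with shNup153_2 alone. Of the 116, 116 passed with DESeq2, 113 with limma-voom, 116 with DESeq2 size factors in edgeR, 109 with no filter on low counts, 85 with shNup153_1 alone, 99 with shNup153_2 alone and 79 (without shControl replicate 4) to 107 when 1 library was left out. The 768 rises and 536 falls became 1381 and 1057 with DESeq2 and 1226 and 1197 as the average of both hairpins in a 3-group model. With all lines as deposited, misplaced ones included, the falls became 309. With a replicate block 0 rises and 0 falls were left and no named call passed. In that fit shControl replicates 3 and 4 share a number with no knockdown library. Residuals of same-numbered basal libraries correlated at -0.724 to 0.254. Those of different number reached 0.724 (shControl replicate 2 with shNup153_1 replicate 1). The 2 residuals of a hairpin mirror each other, so these correlations cannot show whether the numbers pair the libraries. Leaving out 1 library gave 277 to 995 rises and 166 to 624 falls, with 1516 to 2165 genes fully above and 1362 to 1914 fully below the controls. Leaving out shControl replicates 2 and 4 and shNup153_1 replicate 1 gave 422 rises, 221 falls, 3231 genes above and 2981 below. With fewer libraries separation is easier: 2516 genes lay above and 2676 below with shNup153_1 alone, and 3345 and 3395 with shNup153_2 alone. In silenced cultures the 306 rises and 348 falls became 911 and 934 with DESeq2, 2215 and 1946 with the replicate block, and 1 to 273 and 3 to 386 when 1 library was left out. Hairpin differences numbered 643 instead of 638 from the knockdown libraries alone. Each hairpin has 2 libraries, genes of the misplaced lines were not tested, depth of 26863535 to 56299817 counts per basal library limits genes below 1 CPM, and the cause of these shifts was not tested.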
